A study of Rattus norvegicus with 8 samples.

Results

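Endothelins are short vasoconstrictor peptides that are cut from longer precursors and act on a pair of G protein-coupled receptors. Edn1, Edn2 and Edn3 encode the ligands, Ednra and Ednrb encode the receptors, and Ece1 encodes an enzyme that turns the inactive precursor into the active peptide. In the retina, the system is known for its control of vessel tone, and Edn2 and Ednrb are known as a signal and its receptor between stressed photoreceptors and Müller glia. These 6 genes were chosen by name and read from every spot of the arrays that carries the gene name and is not a control. Of the 6 names, 5 were found, on 6 probes and 15 spots, among 26334 names, 30367 probes and 42877 spots in all. The name Edn2 was not among the gene names of the array files. A probe that the files describe as rat endothelin-2, A_64_P010333, was matched to Edn2 through its RefSeq accessions, and a probe named after a transcript, A_42_P839121, was matched to Ece1 in the same way. Values of these 2 probes are given beside those of the 6 probes found by gene name, and they lie outside the rule by which the others were chosen.

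RNA came from retinas of female Lister Hooded rats aged 8 weeks. The CTR group (n = 4) was sham-operated, and in the ONC group (n = 4) the right optic nerve had been crushed with forceps, 3 mm behind the optic disc and during 10 s, a lesion that leads to the gradual loss of retinal ganglion cells (RGCs). In the sham operation the nerve was exposed and the forceps stayed unclosed. All retinas were taken 2 weeks after surgery and profiled one by one, on 4 arrays with 2 dyes each. The labels pair retinas of equal number on an array and give Cy5 to every CTR and Cy3 to every ONC retina, so the effects of dye and of surgery cannot be told apart. Another layout, with retinas of one group on each array, is given in the methods, and the labels were followed here.

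The channels labeled CTR2 and ONC4 stood apart from the others of their label. Of 16 RGC markers, 12 passed the filter on dim spots. The median of their log2 differences from each gene's mean over the 8 channels was 1.12 in the channel labeled CTR2, against -1.50, -0.98 and -0.88 in CTR1, CTR3 and CTR4. In the channel labeled ONC4 it was -1.18, against 1.08, 1.13 and 1.28 in ONC1, ONC2 and ONC3. The summed level of the markers, over its mean, was 0.45, 1.30, 0.53 and 0.69 in the CTR channels and 1.49, 1.48, 1.51 and 0.54 in the ONC channels, in the order of their numbers. The gene with the highest mean level among them was Stmn2. The defining marker Pou4f1 was not found among the gene names of the arrays, and Pou4f3, Nrn1 and Ebf3 did not pass the filter. Under the labels, 11 of the 12 markers were higher in ONC (47.4% of all genes were), a direction that opposes the one the study describes for RGC markers. Their median log2 fold change, ONC minus CTR, was 1.16 with none called by limma at an adjusted p under 0.05, and 2.25 with 10 of 12 called when CTR2 and ONC4 were left out. These markers are what set those channels apart, so the larger value and its calls follow from leaving the channels out and are no test. Every direction below is therefore one between labels, and each endothelin gene is also given without CTR2 and ONC4. For the named genes of the pathway lists, that value is given where it changes the call or the sign or moves the value by over 1.5 times.

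Brightness decided which of the genes could be used. A spot was kept when its mean foreground was at least 2 times its local background in all 8 channels and it carried no outlier mark. The negative control spots of the arrays, 153 in number, lay at a median of 1.11 to 1.17 times the local background in the Cy5 channels and 2.40 to 2.55 times in the Cy3 channels. In the Cy3 channels, 93.5% to 98.7% of these control spots reached 2 times the background, so the filter acted mainly through Cy5. Brightness was therefore also expressed over the median of the negative controls of the same channel.

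**Figure D1:**
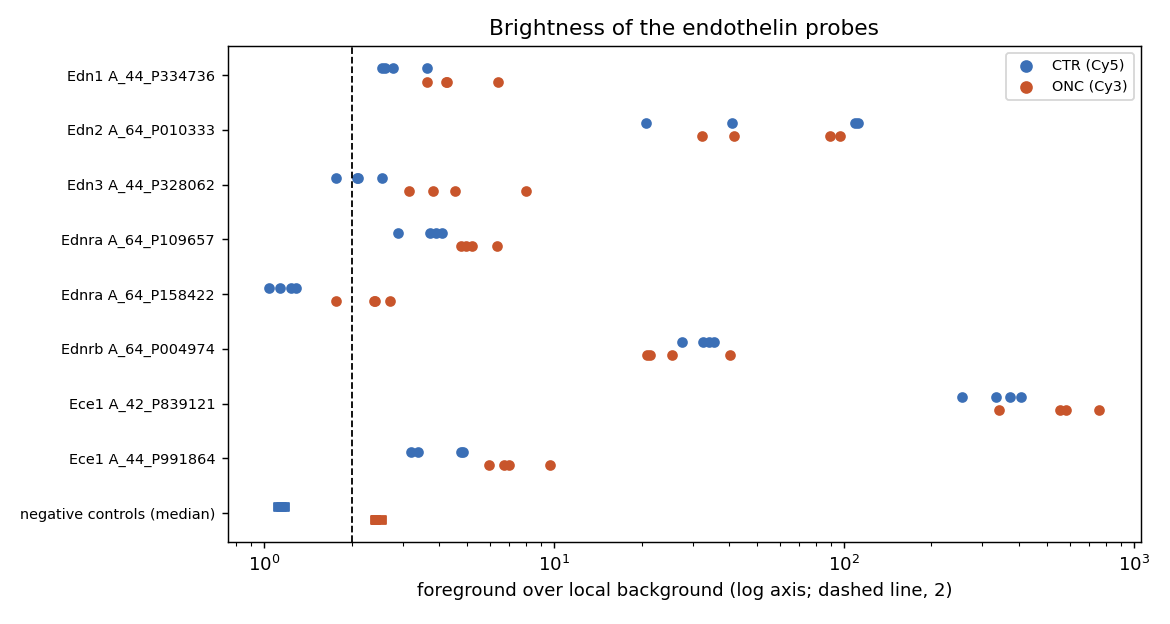
Foreground over local background (log axis) of the 8 endothelin probes, median over spots, in the 4 CTR channels (Cy5) and the 4 ONC channels (Cy3), with the medians of the negative controls as squares and the limit of 2 as a dashed line. Edn2, Ednrb and the Ece1 probe A_42_P839121 lie above 20 in all channels, and the other probes lie under 10.

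The probes fell into bright and dim ones. The probe of Ednrb was 8.46 to 29.3 times the negative controls, that of Edn2 12.6 to 90.5 times, and the Ece1 probe A_42_P839121 117 to 355 times. The probes of Edn1 (1.39 to 3.64 times over all its spots), Ednra (A_64_P109657, 2.0 to 3.77 times) and Ece1 (A_44_P991864, 1.93 to 4.01 times) passed the filter but were dim. The probe of Edn3 failed it, with a foreground of 1.77 times the background in CTR1, and the Ednra probe A_64_P158422 failed it and was not well above background in any of the 8 channels. When the negative controls were used as background and as the limit, an alternative chosen after seeing the data, Edn1, Edn3, Ednra and the Ece1 probe A_44_P991864 all failed, and Edn2, Ednrb and the Ece1 probe A_42_P839121 stayed. Statements on the first 4 are limited accordingly.

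Levels below are log2 intensities after background subtraction and loess normalization, with 0 at the median of the channel. They were compared by limma over all 16307 genes with Benjamini-Hochberg adjustment, a gene being called at an adjusted p under 0.05. Of 16307 genes, 81 (0.497%) were called, 38 higher and 43 lower in ONC. None of the endothelin genes was among them, and 2 of the 6 probes tested, those of Ednrb and the Ece1 probe A_42_P839121, were under 0.05 before adjustment, as were 18.6% of all genes. When the array was fitted as a block, 1254 genes (7.69%) were called, 502 of them higher in ONC (3.08%), and A_42_P839121 was 1 of these. When CTR2 and ONC4 were left out, 415 genes (2.54%) were called and none of the 6 probes was.

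**Figure D2:**
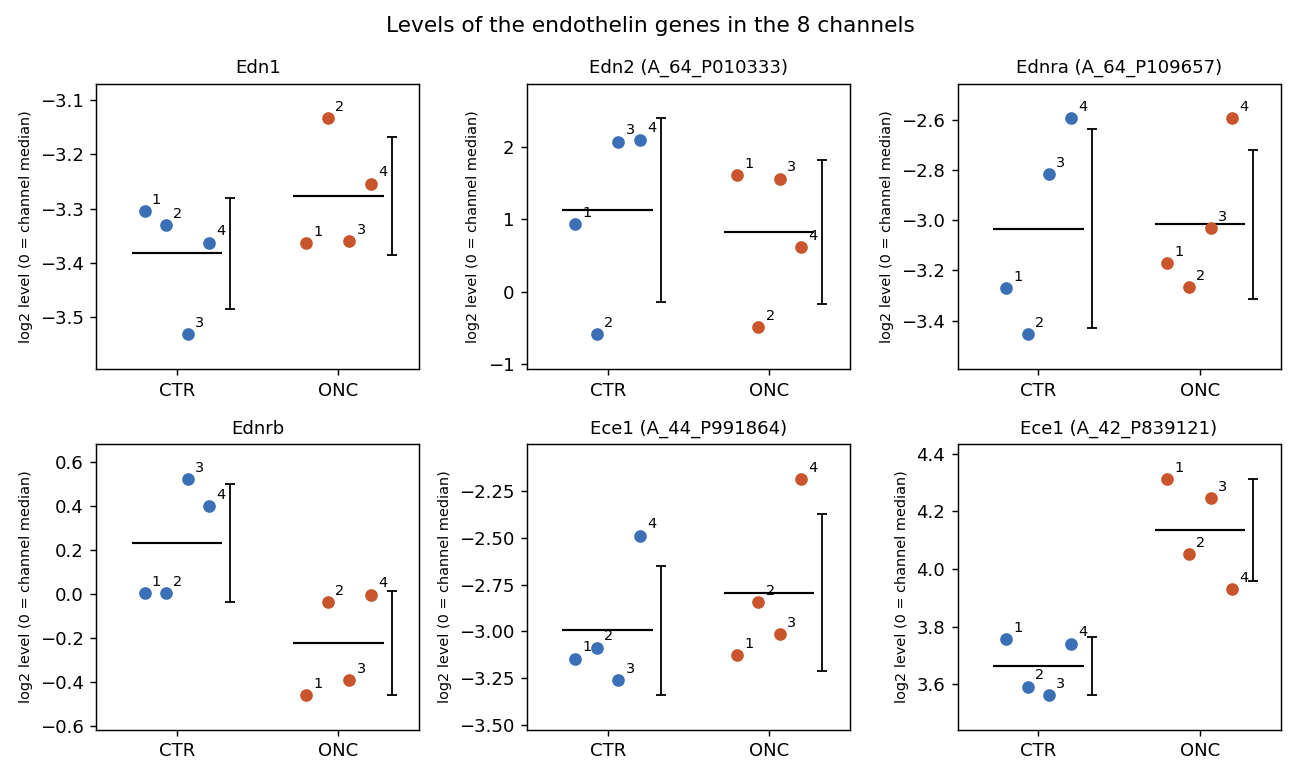
Log2 level (0 at the channel median) of the 6 endothelin probes or genes that passed the filter, in the 4 CTR and 4 ONC channels. Digits give the array, horizontal lines the mean and bars the SD, and the CTR and ONC channels do not overlap in the panels of Ednrb and of the Ece1 probe A_42_P839121.

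Among the ligands, Edn1 encodes the main vasoconstrictor peptide of vessels. Its single probe, on rn4 chromosome 17 from 28304023 to 28304082, was spotted 10 times, and 7 spots passed the filter. The level of Edn1 in CTR1, CTR2, CTR3 and CTR4 was -3.30, -3.33, -3.53 and -3.36, and the ONC channels, from ONC1 to ONC4, had -3.36, -3.13, -3.36 and -3.25. All channels lay within a narrow range and the groups overlapped. The log2 fold change of Edn1, ONC minus CTR, was 0.10 (standard error 0.09, adjusted p = 0.589), with ONC higher on 3 of 4 arrays, and 0.11 without CTR2 and ONC4. It was smaller without CTR3 (0.05) or ONC2 (0.06). The SD between the 7 spots of a channel had a median of 0.15, and the SD between the 8 channel means was 0.11. The first is a spread of single spots and the second one of means over 7 spots, so they cannot be compared directly. When the channels were scaled to their medians with no loess, the value of Edn1 became 0.67 with an adjusted p of 0.00902, in a setting that called 19.6% of all genes.

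**Figure D3:**
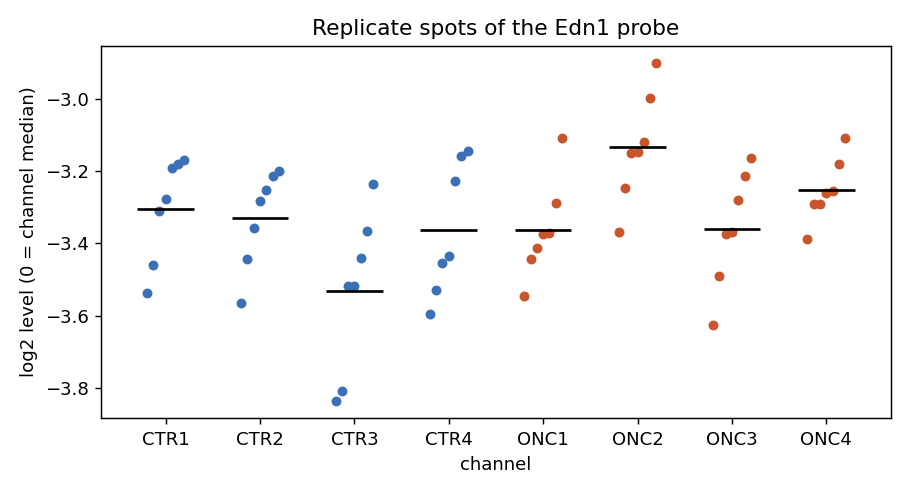
Log2 level (0 at the channel median) of the 7 replicate spots of the Edn1 probe in each of the 8 channels, with the channel mean as a line. Single spots differ within a channel, and the channel mean averages 7 of them.

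Edn2 encodes a ligand known for its rise in stressed retinas. Its probe, on rn4 chromosome 5 from 140748047 to 140748106, varied more between retinas than any other endothelin probe that passed the filter, with an SD of 1.06 over the 8 channels. The level of Edn2 in CTR1, CTR2, CTR3 and CTR4 was 0.93, -0.59, 2.07 and 2.10. The ONC channels, from ONC1 to ONC4, had 1.61, -0.49, 1.56 and 0.62. The lowest values were those of both channels of array 2, and the groups overlapped over most of their range. The log2 fold change was -0.30 (standard error 0.66, adjusted p = 0.857), with ONC higher on 2 of 4 arrays. Within arrays, the ONC channel differed from the CTR channel by 0.68, 0.10, -0.51 and -1.48 on arrays 1 to 4. The value was -0.81 (adjusted p = 0.45) without CTR2 and ONC4. It turned to 0.13 without ONC2, to 0.01 without CTR3 and to 0.02 without CTR4.

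Edn3, the ligand known for its part in the development of neural crest cells, was dim and failed the filter. Its probe lies on rn4 chromosome 3, in a span from 166510899 to 166511843. Its foreground over background was 1.77, 2.11, 2.09 and 2.54 in the CTR channels and 3.16, 4.56, 3.81 and 7.98 in the ONC channels of arrays 1 to 4. The channel labeled ONC4 was apart: its processed signal was 211.2, against 20.2 to 30.6 in the other 7 channels. The reading comes from 1 spot. In a fit with no filter on dim spots, the log2 fold change was 0.38 (standard error 0.39, adjusted p = 1), and it was -0.06 without ONC4 and -0.18 without CTR2 and ONC4. The probe was well above background by the scanner's mark in all 8 channels, and with that mark as the filter the value was 0.60 (adjusted p = 0.578).

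The receptors are Ednra, known from the smooth muscle of vessels, and Ednrb, known from endothelial and glial cells. Ednrb is read by a single probe, A_64_P004974, on rn4 chromosome 15 from 87896574 to 87896633, and the Ednra probe A_64_P158422 lies on chromosome 19 from 32102982 to 32103041. The sequences of these 60-base probes are shown because they overlap in homologous parts of the receptors. Aligned with no gaps, from base 12 of the Ednra probe and base 1 of the Ednrb probe, 43 of 49 bases are identical (87.8%). Capitals mark these identical bases.
Ednra A_64_P158422: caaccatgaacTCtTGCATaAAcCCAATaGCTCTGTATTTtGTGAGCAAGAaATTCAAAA
Ednrb A_64_P004974: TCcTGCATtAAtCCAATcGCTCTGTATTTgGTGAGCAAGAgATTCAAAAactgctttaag

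The Ednrb probe was bright in all channels, while the Ednra probe of this pair was not well above background in any of the 8. In the dim probe, the foreground was 0.72 to 1.27 times the negative controls. How far each probe reads the other receptor was not tested.

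The level of Ednrb in CTR1, CTR2, CTR3 and CTR4 was 0.00, 0.00, 0.52 and 0.40. The ONC channels, from ONC1 to ONC4, had -0.46, -0.04, -0.39 and 0.00. The ONC channels all lay below the CTR channels, as they did for 6.92% of all genes, although ONC2 and ONC4 were within 0.04 of the lowest CTR channel. The mean was 0.23 ± 0.27 (SD, n = 4) in CTR and -0.22 ± 0.24 (SD, n = 4) in ONC. The log2 fold change of Ednrb was -0.45 (standard error 0.16, 95% confidence interval -0.82 to -0.09), with ONC lower on 4 of 4 arrays (39.4% of all genes had one direction on all 4), and it did not pass the adjustment over all genes (adjusted p = 0.179). It was -0.60 (adjusted p = 0.102) without CTR2 and ONC4, and with the array as a block its adjusted p was 0.0896. In a bulk retina, fewer cells of a type and less RNA per cell cannot be told apart.

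Ednra was read by A_64_P109657, on rn4 chromosome 19 from 32108094 to 32108153. Its level was -3.27, -3.46, -2.82 and -2.59 in the CTR channels and -3.17, -3.27, -3.03 and -2.59 in the ONC channels of arrays 1 to 4. The channels of one array lay close together, within 0.22, while the arrays differed by more. The log2 fold change was 0.02 (standard error 0.21, adjusted p = 0.975), and its sign turned without CTR2 and ONC4, at -0.26. With no loess it was 0.46 (adjusted p = 0.172). The probe is dim, and no difference was detectable at this brightness.

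Ece1 gave 2 readings, on rn4 chromosome 5. The bright probe A_42_P839121, from 156737298 to 156737357, was at 3.76, 3.59, 3.56 and 3.74 in CTR1 to CTR4. It was at 4.31, 4.05, 4.25 and 3.93 in ONC1 to ONC4. All ONC channels lay above all CTR channels, as in 5.76% of all genes. The log2 fold change of this probe was 0.47 (standard error 0.11, 95% confidence interval 0.23 to 0.71), with ONC higher on 4 of 4 arrays. Adjusted p values were 0.0748 with no block and 0.0417 with the array as a block, so the call rests on the block. The value was 0.52 (adjusted p = 0.0592) without CTR2 and ONC4.

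The Ece1 probe found by gene name, A_44_P991864, from 156735668 to 156735727, was dim. Its level was -3.15, -3.09, -3.26 and -2.49 in the CTR channels and -3.13, -2.84, -3.02 and -2.19 in the ONC channels of arrays 1 to 4. The groups overlapped, and array 4 was highest in both dyes. The log2 fold change was 0.20 (standard error 0.23, adjusted p = 0.699), with ONC higher on 4 of 4 arrays, and -0.03 without CTR2 and ONC4. The dim probe was at 0.60 with no loess and at 0.56 with processed signals, neither called. Of the probes of Ece1, only the bright one was called in any of the settings tried and kept its sign in all of them.

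Enzymes that cut or clear endothelins were read through a list of 12 genes, of which 8 passed the filter, 3 higher and 5 lower in ONC. Their median log2 fold change was -0.03, against -0.01 over all genes, and none was called, with 1 at an unadjusted p under 0.05 (18.6% of all genes were). That gene was Furin, the convertase that makes the first cut in the endothelin precursor. Furin was at 1.27 ± 0.23 (SD, n = 4) in CTR and 1.79 ± 0.09 (SD, n = 4) in ONC. Its log2 fold change was 0.53 (standard error 0.12, adjusted p = 0.0787), with the ONC channels all above the CTR channels (5.76% of all genes), and its adjusted p with the array as a block, which called 7.69% of all genes, was 0.0327. Ecel1, a relative of Ece1 known from neurons after nerve injury, was at -3.04 in CTR2 and -0.84 in ONC4, and so followed the channels that stood apart. Its log2 fold change was -0.80 (adjusted p = 0.523), and -1.80 (adjusted p = 0.00795) without CTR2 and ONC4. The call comes from leaving out the channels that Ecel1 follows, and is no separate test. The study lists Ecel1 as upregulated in ONC, the opposite direction. The other 6 genes had log2 fold changes of -0.02 for Ece2, -0.04 for Pcsk5, -0.18 for Pcsk6, -0.13 for Pcsk7, 0.10 for Mmel1 and 0.12 for Ctsa, with adjusted p between 0.509 and 0.929. Without CTR2 and ONC4, Mmel1 turned to -0.14, and Ece2 was at -0.01, Pcsk5 at -0.18, Pcsk6 at -0.31 and Pcsk7 at -0.01. Leaving out 1 channel at a time gave -1.34 to -0.53 for Ecel1, -0.28 to -0.09 for Pcsk6, -0.20 to -0.01 for Pcsk7 and 0.07 to 0.16 for Ctsa.

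**Figure D4:**
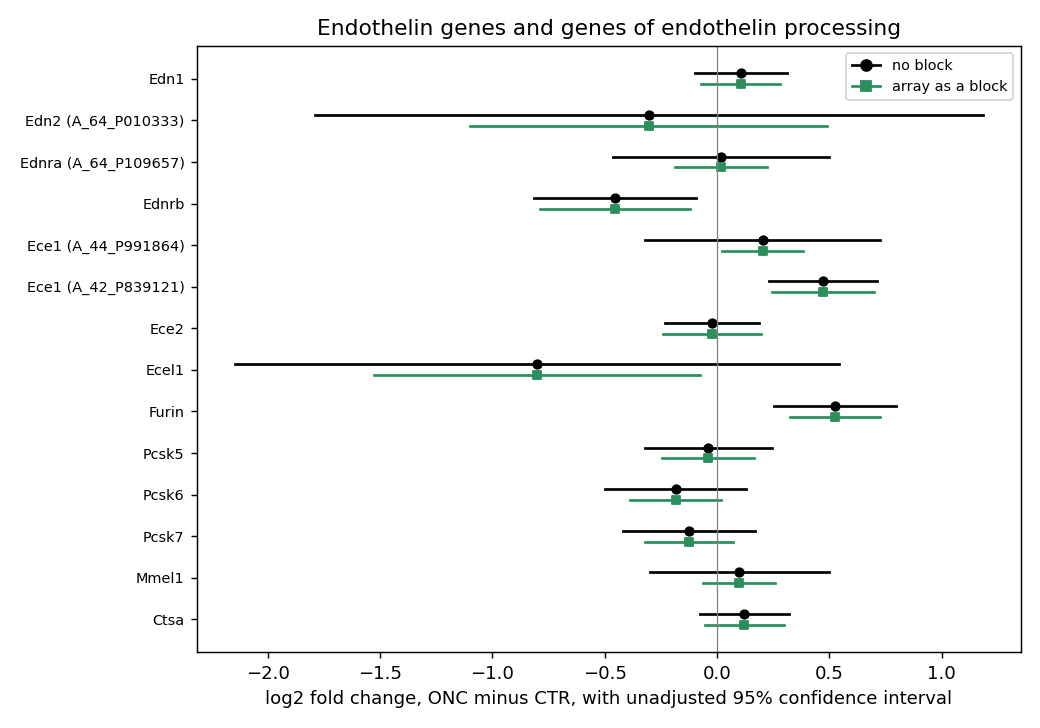
Log2 fold change, ONC minus CTR, with its unadjusted 95% confidence interval for the endothelin genes and the 8 genes of endothelin processing, with no block (black) and with the array as a block (green). The intervals of Ednrb, Furin and the Ece1 probe A_42_P839121 leave out 0 in both fits.

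Endothelin receptors act through G proteins, phospholipase C and kinases. Of 34 genes listed for this signal, 30 were tested, 14 higher and 16 lower in ONC, and the median log2 fold change was -0.04. None was called with no block, and 7 were under 0.05 before adjustment (18.6% of all genes were). With the block, 2 were called (7.69% of all genes were): Plcb1, a phospholipase C, at 0.74 (adjusted p = 0.0403), and Mapk3, the kinase ERK1, at -0.31 (adjusted p = 0.0482). The largest positive values were those of Plcb1 and of Rgs4, a brake on G protein signals, at 0.61 (adjusted p = 0.288). Rgs4 was high in CTR2 (0.71) and low in ONC4 (-0.05) against the others of their label, and so was Plcb1 (-1.98 and -2.05), as the RGC markers were. The part of RGCs in both values was not tested. The study lists Rgs4 as an RGC marker that was downregulated in ONC, the opposite direction. The largest negative values were -0.41 for the receptor kinase Grk5 (adjusted p = 0.0933) and -0.33 for the kinase Src (adjusted p = 0.301), with Src at -0.21 when ONC2 was left out. Leaving out CTR2 and ONC4 gave Plcb1 (1.02), Rgs4 (1.07) and Grk5 (-0.53) adjusted p of 0.00549, 0.0142 and 0.0483, where 2.54% of all genes were called. Plcb1 and Rgs4 share the pattern that set those channels apart. Grk5 had its lowest CTR value in CTR2 (-1.47) and its highest ONC value in ONC4 (-1.54). The calls of Plcb1, Rgs4 and Grk5 there follow from the choice and are no separate test.

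Signals that reach Müller cells after injury made a list of 22 genes. Of these, 21 were tested, 5 higher and 16 lower in ONC, and the median log2 fold change was -0.14, or -0.32 without CTR2 and ONC4 (-0.06 over all genes). None was called with no block, and 4 were under 0.05 before adjustment, beside 18.6% of all genes. The block, which called 7.69% of all genes, gave 2 calls here, the stress transcription factor Atf3 at -1.09 (adjusted p = 0.0327) and Junb, of the same class, at -0.59 (adjusted p = 0.0449). Atf3 varied with the channels used: it was at -1.99 (adjusted p = 0.0538, no block) without CTR2 and ONC4 and at -0.64 without CTR4. CTR2 was its lowest CTR channel (-1.03) and ONC4 its highest ONC channel (0.60). The value of -1.99 therefore follows from leaving them out and is no separate test. Gfap, the filament protein of reactive glia, was at -1.15 (adjusted p = 0.296), and at -0.75 without ONC2. Hif1a, the hypoxia factor, was at 0.63 (adjusted p = 0.23) and Egr1, an immediate early gene, at 0.43 (adjusted p = 0.573). The value of Egr1 was 0.07 without CTR4, 0.77 without CTR2 and 0.74 without CTR2 and ONC4.

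Other vasoactive systems were read through 28 genes. Of these, 16 were tested, 8 higher and 8 lower in ONC, the median log2 fold change was 0.01 (-0.01 without CTR2 and ONC4), and 1 was under 0.05 before adjustment (18.6% of all genes were). None was called, with or without the block. That 1 gene was Npr1, a receptor of natriuretic peptides, at -0.38 (adjusted p = 0.138). Nos3, the nitric oxide synthase of endothelium, was at -0.29 (adjusted p = 0.271), Ramp3 at 0.28 (adjusted p = 0.478) and Agt, the precursor of angiotensin, at 0.28 (adjusted p = 0.314). Without CTR2 and ONC4, where 2.54% of all genes were called, Ramp3 was at 0.58 (adjusted p = 0.0292) and Nos3 at -0.44 (adjusted p = 0.0895). Ramp3 follows the channels left out, so its call there is no separate test. The study lists Ramp3 as downregulated in ONC, the opposite direction.

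Markers of cells that carry the endothelin system were set beside these values. Of 14 Müller cell markers 13 were tested, 4 higher and 9 lower in ONC, with a median of -0.19 and Dkk3 at the highest mean level. Kcnj10 did not pass the filter. Of 14 reactive glia markers, 12 were tested and all 12 were lower in ONC, with a median of -0.54 and A2m at the highest mean level. The study lists Cp and Timp1 of this list, here at -0.54 and -0.20, as upregulated in ONC, the opposite direction. The summed level of the reactive glia markers, over its mean, was 0.89, 0.99, 1.40 and 1.73 in the CTR channels and 0.65, 0.79, 0.70 and 0.84 in the ONC channels, by number. The median of their log2 differences from each gene's mean was -0.20, -0.22, 0.53 and 0.85 in the CTR channels and -0.18, -0.40, -0.17 and -0.01 in the ONC channels. Ednrb was likewise highest in CTR3 and CTR4. It was lowest in ONC1 and ONC3, as the summed level was, while the median was lowest in ONC2. The summed levels of the microglia markers (1.53 and 1.52) and of the astrocyte markers (1.40 and 1.54) were also highest in CTR3 and CTR4. So was that of the Müller cell markers (1.27 and 1.14), although their median log2 difference was 0.21 in CTR3 and -0.07 in CTR4. These lists share genes with that of reactive glia: Gfap is among the 4 astrocyte markers tested, and Vim is among the Müller cell markers. The part of these cells in the value of Ednrb was not tested. Of 13 endothelial markers 11 were tested, with a median of 0.06 and Kdr at the highest mean level, and of 11 markers of pericytes and smooth muscle 10 were tested, with a median of -0.03 and Des at the highest mean level. Of 12 microglia markers, 12 were tested and 11 were lower in ONC, with a median of -0.32 and C1qb at the highest mean level. By limma with no block, no marker of these 5 lists was called, and 5, 3, 0, 1 and 4 of them were under 0.05 before adjustment (18.6% of all genes were). With the array as a block, which called 7.69% of all genes, 4 Müller cell markers were called, Hes1 higher in ONC (0.69) and Slc1a3 (-0.56), Vim (-0.41) and Crym (-1.04) lower. The block also gave calls for A2m (-0.83) and again Vim among the reactive glia markers, and for Abcc9 (-0.43) among those of pericytes and smooth muscle. Leaving out CTR2 and ONC4 gave medians of -0.23 for Müller cells, -0.66 for reactive glia, -0.19 for endothelium, -0.09 for pericytes and smooth muscle and -0.54 for microglia, against -0.06 over all genes. The markers of these 5 lists called then were Sox9 of the Müller cell list and C1qc and P2ry12 of the microglia list (2.54% of all genes were called). In all of them CTR2 was the lowest CTR channel (Sox9 -0.09, C1qc -2.32, P2ry12 -1.26). ONC4 was the highest ONC channel in Sox9 (0.28) and C1qc (-1.96) but not in P2ry12. These calls follow the channels left out and are no separate test. Other lists had medians of -0.31 for astrocytes (S100b at the highest mean level), 0.15 for pigment epithelium and melanocytes (Ttr), 0.04 for oligodendrocytes (Mag, with Cnp called with the block at -0.75), -0.44 for lens (Cryba1) and -0.05 for cornea and ciliary body (Aldh3a1). In the same order, these medians were -0.25, -0.04, -0.06, -0.30 and -0.13 without CTR2 and ONC4, with Cnp called there too. Cnp had its lowest CTR value in CTR2 (-2.16), so that call is no separate test either. The summed level of the lens markers, over its mean, was 2.08 in CTR2 and 0.54 to 1.17 in the other channels.

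**Figure D5:**
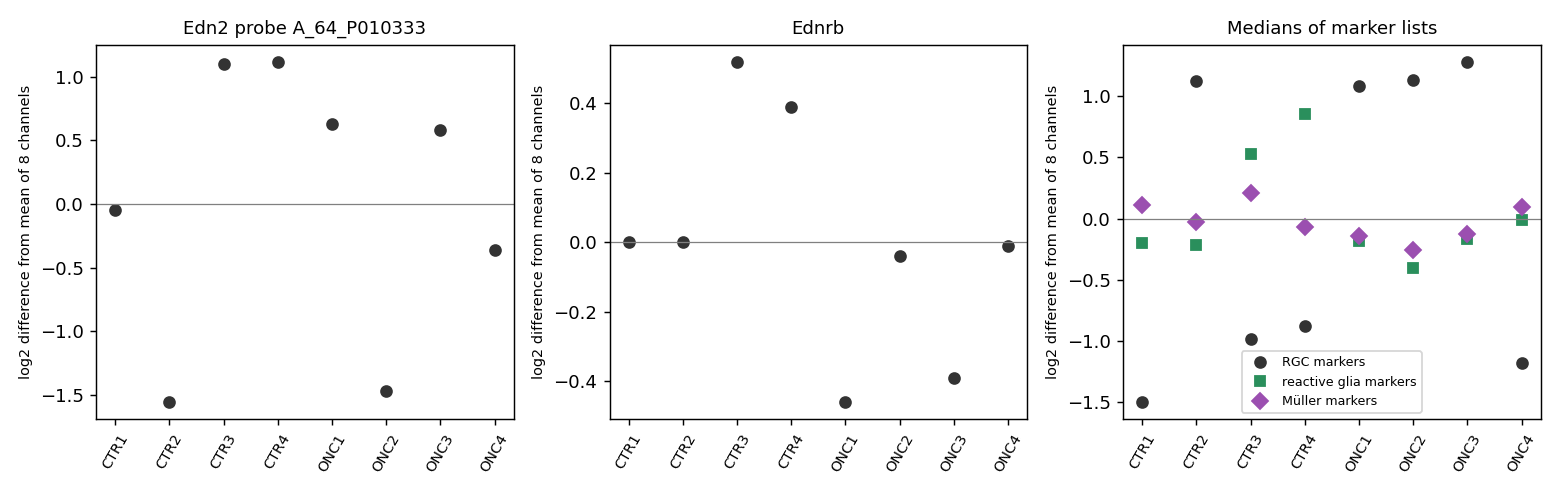
Log2 difference from the mean over the 8 channels for the Edn2 probe, for Ednrb and for the medians of the RGC, reactive glia and Müller cell markers. Edn2 is lowest in CTR2 and ONC2, Ednrb is highest in CTR3 and CTR4, and the RGC markers are high in CTR2, ONC1, ONC2 and ONC3.

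The genes most like each endothelin gene over the 8 channels were sought by Pearson's r among 2100 genes with an SD of at least 0.3, as a description with no test, since channels of one array share a slide position. Edn2 was most like Rab30 (0.982), Pdlim4 (0.975) and Kif11 (0.972), and 36 genes exceeded 0.9. Ednrb was most like Ccdc8 (0.956), the protease inhibitor A2m (0.955) and Fmod (0.952), with 15 genes above 0.9. A2m is also on the list of reactive glia markers. The Ece1 probe A_42_P839121 was most like Apba2 (0.993), Six6 (0.978) and Gstcd (0.959), with 17 above 0.9. For the dim probes, Edn1 was most like Gjb6 (0.955), Zfp319 (0.949) and Extl1 (0.941), Ednra most like Epha3 (0.962), Icam2 (0.958) and Bmpr1b (0.956), and the Ece1 probe A_44_P991864 most like Rrp9 (0.959), Wdr76 (0.916) and Tnnc1 (0.885), and these 3 had 3, 50 and 2 genes above 0.9.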

How the data were processed

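Intensity values of each spot were deposited as Agilent Feature Extraction produced them (12.0.3.1 per the file headers, 11.1.19.1 in the submitters' processing notes): mean foreground, median local background and a processed signal that was background-subtracted and dye-normalized, together with other marks of 0 or 1 per spot. Coordinates are those of the deposited files, on rn4. There were 44254 spots per array, 1377 of them controls.

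Spots were kept with a foreground of at least 2 times the background in all 8 channels and no outlier mark. This kept 27371 spots, 18599 probes and 16307 genes. Which marks count as outliers was not settled in the planned design. The 4 kinds of mark and the 2 marks of the spot alone were run first (24110 and 27587 spots). The set of 3 used here (non-uniform spot, non-uniform background, spot population outlier) was then picked out of all combinations because it gave the spot count known from an earlier processing of these files. Its choice therefore rests on that count alone, and the other 2 sets are given as alternatives.

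Background was subtracted, arrays were normalized by loess, channels were centered on their medians, and spots, then probes, were averaged per gene name. The test of ONC against CTR was that of limma 3.58.1 (R 4.3.3), two-sided and with no block, from lmFit and eBayes, and the code was tested on simulated data. The number of arrays limits precision. Figures were drawn with matplotlib 3.10.9 in Python 3.11.15. Accessions were matched to genes through a RefSeq table of another assembly (GRCr8), used for names only. Alternatives were normexp (offset 50), processed signals, median scaling with no loess, Aquantile and other filters. The others were the array as a block, channels left out, the probe with the highest mean level of each gene, and the methods' t-test on linear values.

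Same-numbered channels share an array. The deviations of CTR and ONC channels from their group means correlated at 0.15, 0.55, 0.40 and 0.49 for arrays 1 to 4. Between channels of unlike number, the correlation ran from -0.51 (CTR2 with ONC4) to 0.17 (CTR1 with ONC2). Arrays 2 to 4 lay above that range and array 1 lay within it, so the pairing did not show on array 1. The array was fitted as a block.

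The genes and lists were chosen with earlier results of these data known. Named genes are the 6 endothelin genes, all tested genes of endothelin processing, the 2 largest rises and falls of each other pathway list, and any gene of these lists called with or without the block, the marker with the highest mean level of each marker list given, and the 3 genes most like each endothelin gene. Markers named for a call, for a failed filter or for their direction in the study were chosen after their values were seen.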

Additional observations from a re-analysis of the deposited data

Results flagged for a closer look

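In 29 genes and probes, the lowest or highest channel of a group was set against the other 3 of its group, and 8 of 58 groups held a channel far from the others. Chance would give about 1 in 20 for independent genes that were not selected. Many of these genes were named for the size of their change, and they share channels, so the rates cannot be compared. ONC4 was low in Plcb1 (-2.05, the others -1.53 to -1.47), in Rgs4 (-0.05, the others 0.89 to 0.94) and in Ramp3 (-3.60, the others -3.23 to -3.17). CTR2 was low in Mmel1 (-2.95, the others -2.46 to -2.36) and high in Ramp3 (-2.99, the others -3.81 to -3.75). These are the channels that stand apart in the RGC markers. ONC2 was low in Furin (1.66, the others at 1.84), in Mapk3 (5.93, the others at 6.30) and in Gfap (-3.26, the others -1.69 to -1.57).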

How the results depend on the processing

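Ednrb kept its direction, and stayed short of the threshold, in all 21 alternatives run (-0.60 to -0.36, adjusted p 0.0766 to 0.513). The Ece1 probe A_42_P839121 kept its direction in all 21 (0.36 to 0.70, adjusted p 0.0417 to 0.323) and was called only with the replicate block, at 0.47. The block on the array changed no call of another endothelin gene. It raised the count of all genes called from 81 to 1254 and of the 75 tested list genes from 0 to 5. The count of all genes was 14 with normexp, 21 with processed signals, 3194 with median scaling and no loess, 408 with Aquantile, 0 with no filter on dim spots and normexp, 123 with spots well above background, 415 without CTR2 and ONC4, and 0 by the methods' t-test after adjustment (2682 before). When each gene was read from its probe with the highest mean level, the count was 124. With no filter, 1957 genes had an unadjusted p under 0.05 by limma. With channels left out in turn, the count of genes called ran from 0 to 38, with 2085 to 3252 at an unadjusted p under 0.05. With no loess 71.0% of the calls were higher in ONC, against 46.9%, with 71.4% under normexp, 57.1% with processed signals and 76.3% without ONC2.

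Alternatives chosen after seeing the data gave 425 genes with the negative controls as background and limit, 113 genes with all 4 kinds of outlier mark (72 of them among the 81) and 80 with the marks of the spot alone (all 80 among the 81). No endothelin gene was called under either set of marks, and none changed direction.

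Of the 75 list genes, 16 were called with no loess (19.6% of all genes were) and 5 without CTR2 and ONC4 (2.54% of all genes were). Among these 5, Ecel1, Plcb1, Rgs4 and Ramp3 follow the channels left out. The other, Grk5, had its lowest CTR value in CTR2 and its highest ONC value in ONC4. None of these calls is a separate test. With no loess Edn1 became 0.67 (adjusted p = 0.00902, range over its alternatives 0.00902 to 1), and Ece2 was called in the opposite direction (0.43, adjusted p = 0.0182). The directions also turned for Pcsk5 (0.00), Pcsk6 (0.16), Pcsk7 (0.08), Ctsa (-0.03) and Nos3 (0.12). With no loess, the calls also included Mapk3 (-0.68, adjusted p = 0.00953), Ramp3 (0.9, adjusted p = 0.0253) and Npr1 (-0.4, adjusted p = 0.0429). Furin, Plcb1 and Junb were called there too, each in its main direction. Src was at -0.03 with no loess, and Mapk3 at -0.13 (adjusted p = 0.469) with processed signals. Ednra turned to -0.03 with processed signals, to -0.01 with no filter and normexp, and to -0.26 without CTR2 and ONC4, and ran from -0.12 to 0.16 with channels left out. Without CTR2 and ONC4 the Ece1 probe A_44_P991864 turned to -0.03, Mmel1 to -0.14 and Edn3 to -0.18, and Ece2 turned to 0.01 with no filter. With channels left out in turn, Edn1 ran from 0.05 to 0.13, Edn2 from -0.88 to 0.13, Edn3 from -0.06 to 0.59, the Ece1 probe A_44_P991864 from 0.00 to 0.37, Ece2 from -0.06 to 0.02, Pcsk5 from -0.12 to 0.03 and Mmel1 from -0.04 to 0.23. The cause was not tested. Signal over background limits Edn1, Edn3, Ednra and A_44_P991864, whose spots lie within 4.01 times the negative controls.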
